A study of Mus musculus with 6 samples.

Results

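The genes described here are the matrix metalloproteases (MMPs), the ADAM and ADAMTS proteases, the ADAMTS-like proteins (ADAMTSL) and the tissue inhibitors of metalloproteases (TIMPs). They were taken by symbol, as every listed gene whose symbol is Mmp, Timp, Adam, Adamts or Adamtsl followed by a number and at most 1 letter. This gave 45 of the 13003 genes listed: 13 MMPs, 11 ADAMs, 12 ADAMTS, 5 ADAMTSL and 4 TIMPs. Within the listed genes the symbol alone decided. The study gives the listed genes as those expressed in the heart, so family members it did not count as expressed are not covered. The libraries were poly-A RNA-seq of ventricular myocardium from 3 WT mice, labelled replicates 1, 3 and 4, and from 3 mice homozygous for a nonsense allele of *Dst-b*, labelled mutant replicates 1, 2 and 3, with 1 library per mouse. *Dst-b* is the muscle isoform of dystonin, a linker between parts of the cytoskeleton, and the allele is constitutive, so that every cell of the mutant mice carries it. All mice were 14 to 19 months old and on a C57BL/6J background, and both sexes were used in the study. Which of the study's independent mutant lines lay behind each library is not given in the sources used here, and the labels give no sex.

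Library depth was 40693854 to 57580110 tags, and a member's tags ran from 22 to 20956 in a library. Levels are given as CPM, which relates counts to the library total after TMM scaling, where 1 gene is compared between libraries, and as RPKM, which also divides by exon length, where genes are compared with each other. Counts summed over *Dst* cannot part its isoforms and so cannot check the genotype: *Dst* stood at 473, 423 and 448 CPM in WT and at 417, 457 and 414 CPM in mutant libraries (adjusted p = 0.704, edgeR). The 5 cardiomyocyte markers summed to 59500 to 60630 CPM in WT and 61420 to 68630 CPM in mutant libraries, every mutant library above every WT library. The markers did not move alike. *Actc1* was called higher (log2 fold change 0.28, adjusted p = 0.0652, edgeR), and *Myh6* was not called (0.19, adjusted p = 0.194). *Tnnt2*, *Ryr2* and *Pln* overlapped between the groups, at -0.04, 0.07 and -0.06, and were not called. Mutant replicate 2 stood apart in genes of the sex chromosomes. *Xist*, which is transcribed from the inactive X, was at 204 CPM there and at 0.0246 to 0.299 CPM in the others, and the Y-linked *Ddx3y*, *Eif2s3y*, *Kdm5d* and *Uty* were at 0 there and at 19.1 to 138 CPM in the others. By these genes mutant replicate 2 came from a female and every other library, WT included, from a male. Sex was thus not balanced between the genotypes. Without mutant replicate 2 *Adamtsl2* and *Adamtsl4* were still called, while *Adamts2* and *Adam22* were not (values beside each gene). WT replicate 3 stood apart in markers of tissue next to the ventricle. Its 4 atrial markers summed to 427 CPM, against 112 and 130 CPM in the other WT and 50.6 to 247 CPM in mutant libraries, with *Bmp10* at 248 tags there and at 0 to 7 in the others, and its 4 mesothelial markers to 68.0 CPM against 18.2 to 36.7 CPM in the others.

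MMPs, ADAMs and ADAMTS are zinc-dependent endopeptidases of the metzincin clan, made as inactive precursors. MMPs cleave collagens, other matrix proteins and surface proteins, ADAMs shed the outer part of membrane proteins such as growth factors and Notch receptors, and ADAMTS are secreted and act on procollagens and proteoglycans. TIMPs bind and block the active enzymes. ADAMTSL proteins share the non-catalytic modules of ADAMTS and lie on fibrillin microfibrils. In the heart these genes are known mainly for turnover of the collagen network between cardiomyocytes.

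The sequence that makes a member a protease is shown first, because the members differ in it. The metzincin zinc-binding motif holds 3 histidines that bind zinc and a catalytic glutamate. It was searched in the translation of the longest coding sequence of each member in GENCODE vM21 (GRCm38), with glycine, asparagine or serine allowed at its turn, a form taken after 4 ADAMTS were seen to lack the glycine. All 13 MMPs, all 12 ADAMTS and 8 of 11 ADAMs encoded it, while *Adam11*, *Adam22*, *Adam23*, the 5 ADAMTSL and the 4 TIMPs did not. With glycine alone, 8 of 12 ADAMTS encoded it. The coding stretches of 33 bases below run 5′ to 3′ on the coding strand, with the codons of the 3 histidines and the glutamate in capitals, and show an MMP, an ADAM, an ADAMTS of each form and the aligned stretch of *Adam22*.
*Mmp2*, exon 8, chr8:92839279-92839311, plus strand: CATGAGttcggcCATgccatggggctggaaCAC
*Adam19*, exon 11, chr11:46125050-46125082, plus strand: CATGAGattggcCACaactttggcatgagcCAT
*Adamts1*, exons 3 and 4, chr16:85799191-85799545, minus strand: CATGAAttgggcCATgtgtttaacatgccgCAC
*Adamts2*, exons 7 and 8, chr11:50775403-50776134, plus strand: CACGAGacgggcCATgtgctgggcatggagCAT
*Adam22*, exon 13, aligned to *Adam19*, chr5:8143064-8143096, minus strand: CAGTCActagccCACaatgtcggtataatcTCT
In *Adam22*, 1 of the 4 capital codons still encoded the residue of the motif.

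The promoters of *Adamtsl2* and *Adamtsl4* are shown because these were the members called most steadily. RefSeq promoters of GRCm38.p6 (250 bases before to 50 after a start site) were matched by gene identifier for 31 of the 45 members, with 35 promoters. Capitals mark matches on either strand to 5 motifs, none of which holds another: TGANTCA for the AP-1 factors, then GGAATG for the TEAD factors, then TATAAA for the TATA box, then GGGCGG for the GC box and finally CAGACA for the SMAD factors.
*Adamtsl2*, chr2:27079129-27079428, plus strand: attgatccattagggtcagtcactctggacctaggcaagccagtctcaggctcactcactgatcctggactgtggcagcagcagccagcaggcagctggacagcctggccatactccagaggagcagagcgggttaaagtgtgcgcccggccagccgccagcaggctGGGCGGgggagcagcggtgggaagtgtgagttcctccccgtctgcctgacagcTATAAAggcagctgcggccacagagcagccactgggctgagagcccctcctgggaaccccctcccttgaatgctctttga
*Adamtsl4*, chr3:95687868-95688167, minus strand: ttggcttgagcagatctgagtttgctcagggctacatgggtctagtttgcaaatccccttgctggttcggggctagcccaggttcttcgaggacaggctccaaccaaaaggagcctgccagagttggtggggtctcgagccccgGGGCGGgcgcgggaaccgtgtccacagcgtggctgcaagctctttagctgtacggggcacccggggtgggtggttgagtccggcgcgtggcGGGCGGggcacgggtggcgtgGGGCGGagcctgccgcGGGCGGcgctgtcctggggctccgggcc
The *Adamtsl2* promoter held a TATA box at -30 and a GC box at -83 from the start site, and that of *Adamtsl4* held 4 GC boxes and no TATA box. A GC box was present in 23 of the 35 member promoters (65.7%) against 35.7% of all 32851 promoters, and a TATA box in 5 (14.3%) against 13.6%. AP-1 matches were in 4 (11.4%) against 7.81%, TEAD matches in 3 (8.57%) against 14.7% and SMAD matches in 3 (8.57%) against 21.0%. A match describes the letters only.

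By RPKM the 4 TIMPs summed to the highest level of the subfamilies, 146.7 ± 33.6 in WT, and the 12 ADAMTS to the lowest, 31.1 ± 0.584 (shown in the plot of levels by member). *Timp3* led at 66.9 ± 16.2 RPKM in WT and 64.7 ± 7.07 RPKM in mutant hearts (SD, n = 3 each, as throughout). Among the proteases *Adam15* (28.7 ± 2.33 RPKM in WT), *Mmp2* (26.4 ± 1.86 RPKM) and *Adam9* (21.8 ± 1.4 RPKM) led, and the spread of *Adam15* and *Mmp2* overlapped. The most abundant ADAMTS, *Adamts1*, reached 7.33 ± 1.04 RPKM, and the ADAMTSL were led by *Adamtsl5* at 31.8 ± 1.18 RPKM. At the other end 14 members had a mean below 1 RPKM over the 6 libraries, among them *Mmp12* and *Mmp13*. The lowest was *Adamts12*, a protease that cleaves the matrix protein COMP, at 0.136 RPKM, and with a CPM of at least 1 in fewer than 3 libraries it was the 1 member not tested. Of the 44 tested members 38 had a CPM of at least 1 in all 6 libraries.

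**Figure D1:**
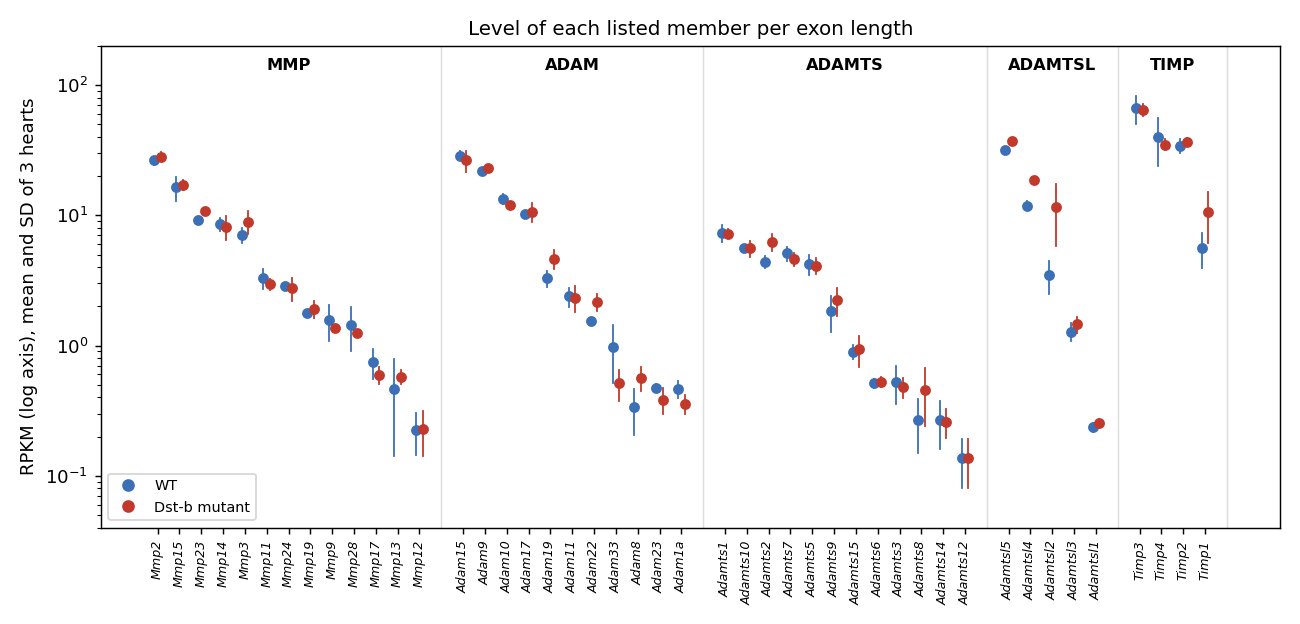
RPKM (log axis) of the 45 members in order of level within each subfamily, as means with SD over 3 WT (blue) and 3 mutant (red) hearts. *Timp3* lies highest, and *Adamtsl2* has the widest gap between the groups, at 3.47 against 11.7 RPKM.

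Most metalloprotease and TIMP genes did not differ detectably between the genotypes, and those that did were higher in the mutant hearts. With edgeR's quasi-likelihood test across 12955 genes, called at p under 0.01 with an adjusted p under 0.1, 4 of 44 tested members (9.09%) were called, against 4.64% of all genes. All 4 were higher (2.8% of all genes) and 0 were lower (1.84% of all genes). At an unadjusted p under 0.05, 7 members were higher and 1 lower, against 8.7% and 7.85% of all genes. The exact test of edgeR called 6 members higher and 0 lower (3.8% and 2.45% of all genes), DESeq2 called 6 higher and 1 lower, *Adam33* (4.48% and 3.46%), and limma with a trend called 4 higher and 0 lower (2.92% and 1.79%). At an adjusted p under 0.05 alone 2 members were called (2.35% of all genes), the same number as at p under 0.001 with an adjusted p under 0.1 (2.16%). WT and mutant CPM did not overlap for 8 members that were higher and 2 that were lower in mutant libraries, where 11.4% and 10.5% of all genes showed the same. For 30 of the 44 the difference of the group means was below the larger group's SD. The median log2 fold change of the members was 0.03, against 0 for all genes after scaling. By the zinc site shown above, 1 of the 32 tested proteases that encode it was called higher and 3 of the 8 other tested members, TIMPs left aside, beside 2.8% of all genes. These groups were drawn up with the calls known and nothing is read from the counts. Bulk RNA cannot tell fewer cells of a type from less RNA per cell, for any of these genes. All 4 called members, with *Adam19* and *Timp1*, stand in term lists of up-regulated genes that the study drew from these same libraries, which are no independent evidence of direction. *Adam19* and *Timp1* thus passed in the study but were not called by the quasi-likelihood test used here.

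**Figure D2:**
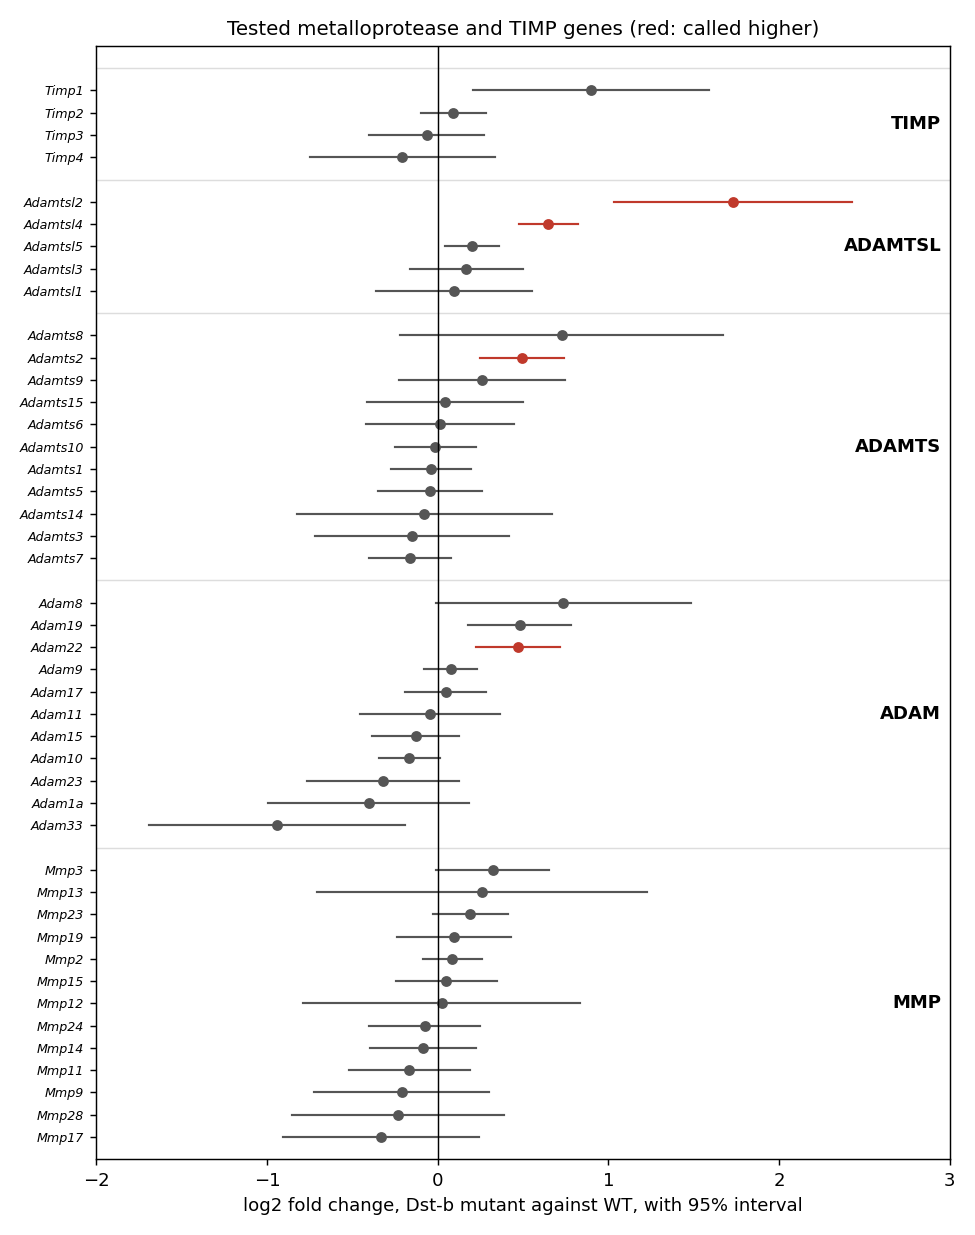
Log2 fold change, mutant against WT, with the 95% interval of the edgeR fit for the 44 tested members by subfamily. The 4 called members (red) are *Adamtsl2*, *Adamtsl4*, *Adamts2* and *Adam22*, and the intervals of the MMPs all include 0.

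The ADAMTS-like genes gave the clearest difference, with 2 of 5 called higher, against 2.8% of all genes. None of the 5 had a negative log2 fold change, where 6478 of the 12955 genes tested had one. With 5 genes these counts are small. *Adamtsl2* (gene 77794, chr2:27079336-27108981) encodes a secreted glycoprotein that binds fibrillin and a latent TGF-β-binding protein, and is mutated in geleophysic dysplasia. It stood at 13, 14 and 7.87 CPM in the WT libraries (replicates 1, 3 and 4) and at 31.2, 59.8 and 24.6 CPM in the mutant libraries (replicates 1, 2 and 3). Every mutant library lay above every WT library, and mutant replicate 2 stood well above the other mutants. The log2 fold change was 1.73 (SE 0.31, 95% interval 1.03 to 2.43, adjusted p = 0.0209, edgeR), and it was 1.26 without mutant replicate 2 (adjusted p = 0.0230). *Adamtsl4* (gene 229595, chr3:95676201-95687927), a microfibril protein known for the suspension of the eye lens, had the smallest standard error of the called members. Its WT libraries held 52.0, 46.9 and 44.3 CPM and its mutant libraries 76.5, 71.1 and 76.5 CPM. The groups were far apart relative to their spread, with a log2 fold change of 0.65 (SE 0.08, 95% interval 0.47 to 0.82, adjusted p = 0.00274, edgeR), and of 0.68 without mutant replicate 2 (adjusted p = 0.00580). Per length, *Adamtsl4* was at 11.9 ± 0.966 RPKM in WT and 18.8 ± 0.702 RPKM in mutant hearts, and *Adamtsl2* at 3.47 ± 0.988 and 11.7 ± 5.81 RPKM.

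*Adamtsl5*, which also binds microfibrils, held 84.7, 78.5 and 82.8 CPM in WT and 89.0, 93.1 and 101 CPM in mutant libraries. These groups did not overlap, but the log2 fold change of 0.20 (SE 0.07) was not called (adjusted p = 0.190). *Adamtsl3* and *Adamtsl1*, at 0.17 and 0.09 on the log2 scale, overlapped between the groups (adjusted p = 0.629 and 0.866). With the replicate number as a block, *Adamtsl3* turned to -0.018. Summed over the 5 genes, ADAMTSL RNA came to 48.7 ± 2.40 RPKM in WT and 69.1 ± 5.28 RPKM in mutant hearts, with *Adamtsl5*, *Adamtsl4* and *Adamtsl2* making up 97.3% of the level over all libraries. The 2 called genes were called under all 16 alternatives to the test described above, each library left out in turn included.

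**Figure D3:**
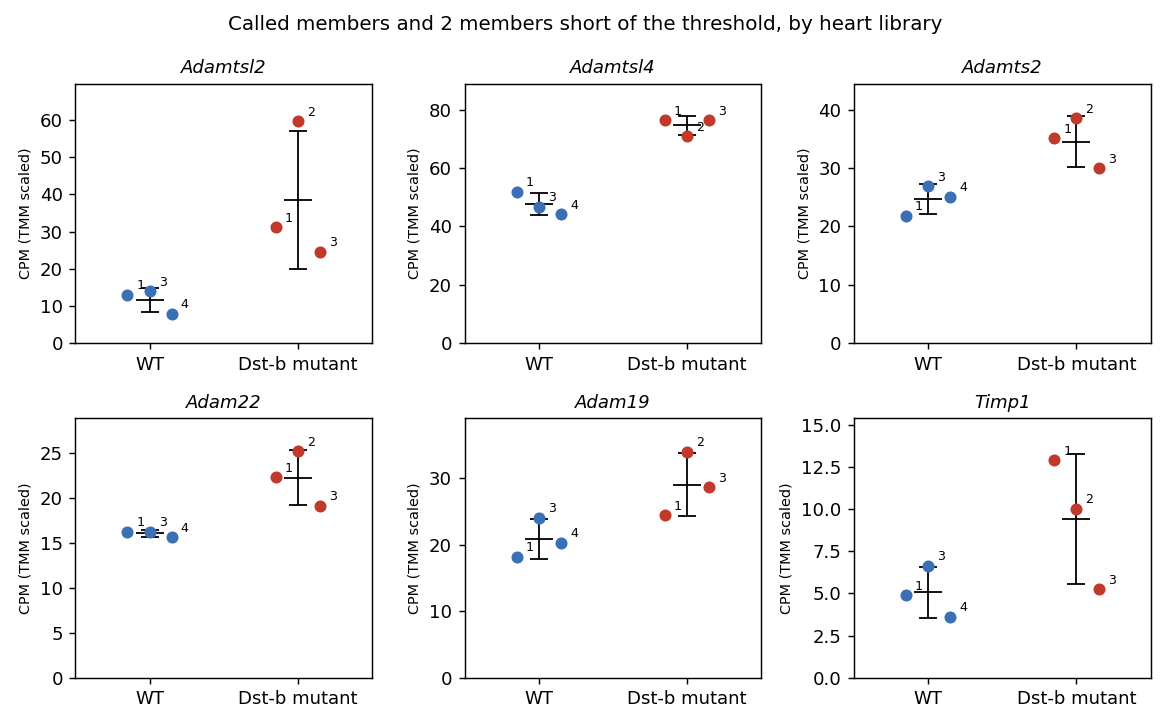
TMM-scaled CPM of 6 members in each heart, from 0, with replicate numbers, means and SD (bars). WT and mutant libraries do not overlap for *Adamtsl2*, *Adamtsl4*, *Adamts2*, *Adam22* and *Adam19*, while *Timp1* overlaps through mutant replicate 3 at 5.26 CPM.

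Among the ADAMTS proteases 1 of 11 tested was called, the procollagen N-proteinase *Adamts2* (gene 216725, chr11:50602085-50807573), which trims the amino-terminal propeptide from fibrillar procollagens before they assemble. It held 21.8, 26.9 and 25.1 CPM in WT and 35.1, 38.6 and 30.0 CPM in mutant libraries. Every mutant value was above every WT value, by a log2 fold change of 0.49 (SE 0.11, 95% interval 0.24 to 0.74, adjusted p = 0.0526, edgeR). The call was lost without WT replicate 1 (adjusted p = 0.149), mutant replicate 1 (0.205) or mutant replicate 2 (0.126), with a log2 fold change that stayed between 0.40 and 0.58 over all 6 libraries left out in turn. The other procollagen N-proteinases, *Adamts3* and *Adamts14*, were at 0.526 and 0.269 RPKM in WT and had log2 fold changes of -0.15 and -0.08, neither called. Of the 5 proteoglycanases none was called and none had an unadjusted p under 0.05. The most abundant, *Adamts1*, held 37.9, 30.2 and 40.1 CPM in WT and 36.5, 36.0 and 32.9 CPM in mutant libraries, the mutant values within the WT range (log2 fold change -0.04, 95% interval -0.27 to 0.20). *Adamts10*, which is linked to fibrillin microfibrils, was at 37.1, 36.5 and 40.9 CPM against 31.7, 42.5 and 39.2 CPM (log2 fold change -0.01, 95% interval -0.25 to 0.22). Summed ADAMTS RNA was 31.1 ± 0.584 RPKM in WT and 32.8 ± 2.66 RPKM in mutant hearts.

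Of 11 ADAM genes 1 was called, *Adam22* (gene 11496, chr5:8072347-8368312), which has no protease activity and is a receptor for the secreted LGI proteins, known from synapses and peripheral nerve. WT libraries held 16.3, 16.2 and 15.7 CPM and mutant libraries 22.3, 25.3 and 19.1 CPM. The WT values were almost identical and all mutant values lay above them, with a log2 fold change of 0.47 (SE 0.11, 95% interval 0.23 to 0.72, adjusted p = 0.0584, edgeR). It was the least steady of the 4 calls, lost without WT replicate 1 (adjusted p = 0.134), WT replicate 3 (0.127), WT replicate 4 (0.125), mutant replicate 1 (0.219) or mutant replicate 2 (0.146). Its relatives without the zinc site, *Adam11* and *Adam23*, had log2 fold changes of -0.05 and -0.32, neither called. The 3 Schwann cell markers listed summed to 4.77 to 7.67 CPM in WT and 6.50 to 7.70 CPM in mutant libraries. None was called, and *Sox10* was too low to be tested.

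*Adam19* (gene 11492, chr11:46054502-46147347), a sheddase of neuregulins that is needed for heart valve and septum formation, came closest to the threshold among the uncalled members. Its WT libraries held 18.2, 24.1 and 20.3 CPM and its mutant libraries 24.4, 34.0 and 28.7 CPM. The groups lay next to each other without overlap, and the log2 fold change of 0.48 (SE 0.14) had an adjusted p of 0.108 in edgeR. Without WT replicate 3 it was called (adjusted p = 0.0915), and without mutant replicate 2 the log2 fold change was 0.34 (0.250). *Adam8*, an ADAM of leukocytes, stood at 1.18, 1.18 and 0.540 CPM in WT and 1.83, 1.74 and 1.27 CPM in mutant libraries (log2 fold change 0.74, adjusted p = 0.310). *Adam1a*, a gene of the male germ line that was low here, was at 1.32 to 1.71 CPM in WT and 0.917 to 1.28 CPM in mutant libraries (log2 fold change -0.41, adjusted p = 0.488). It shares 4779 exon bases with *Gm42878* and 1805 with *Mapkapk5* on its strand, and 848 with *Tmem116* on the opposite strand. For *Adam8* and *Adam1a* the groups did not overlap and the test was not passed.

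None of the abundant sheddases was called. *Adam10*, the main sheddase of Notch receptors, held 57.7, 59.9 and 67.5 CPM in WT and 51.5, 57.5 and 55.7 CPM in mutant libraries, all mutant values below all WT values, with a log2 fold change of -0.17 (SE 0.08, 95% interval -0.35 to 0.01, adjusted p = 0.337). *Adam15* held 127, 118 and 108 CPM against 96.8, 129 and 96.4 CPM (adjusted p = 0.627), and *Adam9* 94.8, 83.4 and 87.1 CPM against 96.0, 90.5 and 93.0 CPM (adjusted p = 0.650). The intervals of these 3 genes did not reach 0.40 in either direction on the log2 scale. *Adam17*, which releases tumour necrosis factor and was named after its values were seen, had a log2 fold change of 0.05 (adjusted p = 0.870). *Adam33*, also named after its values were seen, had the most negative log2 fold change of all members, -0.94 (SE 0.34, adjusted p = 0.200 in edgeR). Its values were 2.31, 5.67 and 3.15 CPM in WT and 2.48, 1.66 and 1.64 CPM in mutant libraries, so that they overlapped and the highest was WT replicate 3, the library that stood apart in atrial and mesothelial markers. Without that library the log2 fold change was -0.51 (adjusted p = 0.431). The part of those markers in the *Adam33* value was not tested further.

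None of the 13 MMPs was called, and none had an unadjusted p under 0.05 in edgeR or a call by the exact test, DESeq2 or limma. Their log2 fold changes ran from -0.33 (*Mmp17*) to 0.32 (*Mmp3*) with a median of 0.02. The gelatinase *Mmp2*, which makes up 33.2% of MMP RNA by RPKM, held 77.3, 77.6 and 87.4 CPM in WT and 85.1, 91.2 and 80.4 CPM in mutant libraries. These overlapped, and the log2 fold change of 0.08 (95% interval -0.09 to 0.26, adjusted p = 0.642) was not called. *Mmp15*, a membrane-type MMP, was at 62.1, 61.8 and 87.8 CPM against 65.3, 76.6 and 77.3 CPM (log2 fold change 0.05, 95% interval -0.25 to 0.35), with WT replicate 4 above all other libraries. *Mmp23*, an unusual membrane-anchored MMP, had mutant values above all WT values, 13.4, 13.2 and 13.5 CPM in WT and 15.8, 14.1 and 16 CPM in mutant libraries, without a call (log2 fold change 0.19, adjusted p = 0.364). Other members known from the remodelling heart, chosen after their values were seen, did not pass either: *Mmp14*, the activator of the *Mmp2* precursor, had a log2 fold change of -0.09 (adjusted p = 0.810), *Mmp9* of -0.21 (0.707) and *Mmp3* of 0.32 (0.317). The lowest MMPs were not measured closely. The interval of *Mmp13*, the 1 collagenase listed, ran from -0.71 to 1.22. Summed MMP RNA was 80.0 ± 5.97 RPKM in WT and 84.8 ± 5.34 RPKM in mutant hearts.

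No TIMP was called, and 1 of 4, *Timp1*, had an unadjusted p under 0.05. *Timp1* (gene 21857, chrX:20870166-20874737), the TIMP known to be induced by injury and inflammation, held 4.89, 6.65 and 3.63 CPM in WT and 12.9, 10.02 and 5.26 CPM in mutant libraries. Mutant replicates 1 and 2 lay above all WT libraries and mutant replicate 3 lay among them. The log2 fold change was 0.90 (SE 0.31, 95% interval 0.21 to 1.59) with an adjusted p of 0.183 in edgeR. It was called by DESeq2 (adjusted p = 0.0371) and the exact test (0.0861), and by the quasi-likelihood test without mutant replicate 3 (0.0520), but not by limma (0.216). *Timp1* is X-linked, and without mutant replicate 2 its log2 fold change was 0.84 (adjusted p = 0.296). *Timp2*, which also takes part in activating the *Mmp2* precursor, held 113, 141 and 120 CPM against 141, 130 and 127 CPM, with a log2 fold change of 0.09 (adjusted p = 0.655).

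*Timp3* (gene 21859, chr10:86300412-86349505), the TIMP that binds to the matrix, and *Timp4* (gene 110595, chr6:115244444-115252205), the one best known from the heart, both had their lowest value in WT replicate 4. *Timp3* held 381, 333 and 232 CPM in WT and 297, 331 and 276 CPM in mutant libraries (log2 fold change -0.06, adjusted p = 0.873). *Timp4* held 85.9, 92.7 and 39.9 CPM in WT and 61.8, 68.6 and 58.9 CPM in mutant libraries (log2 fold change -0.21, adjusted p = 0.732). In both the other WT libraries were the highest of the 6. Without WT replicate 4, *Timp4* was called lower in mutant libraries, with a log2 fold change of -0.50 (adjusted p = 0.0267), and *Timp3* was at -0.24 (0.246). Without WT replicate 3 the *Timp4* value was 0.000047, so its direction rests on single WT libraries. The sum of the TIMPs over the sum of the MMPs was 1.86 ± 0.531 by RPKM in WT, with 1.25 in WT replicate 4, and 1.73 ± 0.0739 in mutant hearts.

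*Timp1*, *Timp3* and *Timp4* each lie inside a synapsin gene on the opposite strand, *Syn1*, *Syn3* and *Syn2*, and share 0, 1733 and 90 exon bases with it in GENCODE vM21. Whether counting used the strand is not stated, so reads of *Timp3* and *Syn3* may not be told apart. *Syn3* was counted at 147, 145 and 101 CPM in WT and at 130, 140 and 120 CPM in mutant libraries, with WT replicate 4 again the lowest. *Syn2*, around *Timp4*, was at 4.17, 5.25 and 3.57 CPM in WT and 8.70, 6.32 and 6.68 CPM in mutant libraries. It was called higher (log2 fold change 0.74, adjusted p = 0.0832, edgeR). The part of shared reads in these values was not tested. Genes on the opposite strand also share exon bases with other members. Among these were *Adamts9* (1381 and 424), *Adam15* (1263), *Mmp19* (789 and 212), *Mmp24* (637), *Adam19* (587 and 480), *Adamts8* (489), *Mmp28* (466) and *Adam17* (311). *Adamtsl2*, *Adamtsl4*, *Adamts2* and *Adam22* share no exon base with another gene there.

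Genes that act with these proteases were taken from 6 lists with 86 listed members, all tested: 5 were called higher and 3 lower (9.3%, against 4.64% of all genes). The matrix proteins that MMPs and ADAMTS cleave held 3 of the 5 higher calls, of 16 tested, and none lower. Of all genes 2.8% were called higher and 1.84% lower. The list's median log2 fold change was 0.22. *Col1a1*, a fibrillar collagen chain and a substrate of *Adamts2*, was at 122, 132 and 115 CPM in WT and 168, 181 and 159 CPM in mutant libraries (log2 fold change 0.46, adjusted p = 0.0125). The fibrillar chains *Col1a2*, *Col3a1* and *Col5a1*, named after their values were seen, were at 0.18, 0.23 and 0.16 on the log2 scale. None of these was called (adjusted p = 0.267, 0.223 and 0.3405). *Bgn*, the proteoglycan biglycan, was at 201, 192 and 181 CPM against 299, 320 and 222 CPM (0.55, adjusted p = 0.0434). *Comp*, which *Adamts7* and *Adamts12* cleave, was at 6.75, 15.7 and 11.7 CPM against 35.8, 32 and 14.5 CPM (1.28, adjusted p = 0.0898). The *Col1a1* and *Bgn* groups did not overlap, while in *Comp* mutant replicate 3 lay within WT.

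Of 28 tested surface proteins and ligands that ADAMs or MMPs shed, 1 was called higher and 2 lower, against 2.8% and 1.84% of all genes. At an unadjusted p under 0.05 in edgeR 2 were higher and 7 lower, against 8.7% and 7.85% of all genes. The log2 fold change was positive for 9 and negative for 19, with a median of -0.04. *Cd44*, the hyaluronan receptor, rose from 8.42, 10.1 and 7.11 CPM in WT to 23.6, 28.5 and 20.5 CPM in mutant libraries, by 1.503 on the log2 scale (SE 0.16, adjusted p = 0.00135). *Egf*, a ligand of the EGF receptor, was at 11.3, 11 and 11.9 CPM against 7.83, 3.54 and 4.58 CPM (log2 fold change -1.11, adjusted p = 0.0478), and *Notch3*, the Notch receptor of mural cells, at 60.4, 49.9 and 54.0 CPM against 36.0, 46.0 and 40.2 CPM (-0.43, adjusted p = 0.0652). None of the 3 overlapped between the groups. Of the 8 LGI ligands and scaffold partners of *Adam22*, 1 was called: *Lgi2* at 1.26, 2.14 and 1.49 CPM in WT and 4.78, 3.04 and 2.84 CPM in mutant libraries (1.13, adjusted p = 0.0790). *Lgi1*, named after its values were seen, went the other way without a call. It was at 3.40, 3.85 and 4.78 CPM in WT and 2.39, 0.478 and 1.96 CPM in mutant libraries (-1.33, adjusted p = 0.1745). The list held 3 positive and 5 negative log2 fold changes, with a median of -0.05. Among 7 other metalloproteases *Mme*, the peptidase neprilysin, was lower, at 21.1, 17.9 and 24.9 CPM against 12.5, 6.05 and 13.1 CPM (-1.02, adjusted p = 0.0678). No other of the 7 was called.

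Neither the 16 activators and partners of these proteases nor the 11 other inhibitors and clearance receptors held a call in edgeR's quasi-likelihood test, with 2 activators lower and 1 inhibitor higher at an unadjusted p under 0.05. The exact test and limma gave 0 calls in both lists, and DESeq2 gave 1 in each, *Bsg* and *Lrp1*. *Bsg*, basigin, an inducer of MMPs and the most abundant activator by RPKM, was at 1641, 1617 and 1625 CPM in WT and 1253, 1460 and 1442 CPM in mutant libraries, apart but short of the threshold (log2 fold change -0.23, adjusted p = 0.107). Of the 8 calls in the 6 lists, *Cd44* and *Col1a1* were held whichever library was left out. *Bgn* was lost without WT replicate 3 (adjusted p = 0.114), WT replicate 4 (0.110) or mutant replicate 1 (0.195), and *Mme* without WT replicate 1 (0.153), WT replicate 4 (0.147) or mutant replicate 1 (0.157). *Comp* was lost without WT replicate 1 (0.211), WT replicate 4 (0.159), mutant replicate 1 (0.324) or mutant replicate 2 (0.180) and was not called by DESeq2 (0.134) or limma (0.105 and 0.102 with the pseudocounts of 0.5 and 2), and *Notch3* without WT replicate 1 (0.175), WT replicate 4 (0.111), mutant replicate 1 (0.249) or mutant replicate 3 (0.154). *Egf* was lost without WT replicate 1 (0.117), 3 (0.102) or 4 (0.1001) or mutant replicate 3 (0.141), and *Lgi2* without any library but WT replicate 3, with an adjusted p of 0.103 to 0.314.

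Of 3 listed markers of activated fibroblasts 1 was called. Their CPM summed to 192 to 213 CPM in WT and to 419, 441 and 291 CPM in mutant replicates 1, 2 and 3. *Acta2*, which smooth muscle also expresses, was called higher (log2 fold change 1.34, adjusted p = 0.000258), while *Postn* (0.68, adjusted p = 0.171, groups overlapping) and *Fap* (-0.17, adjusted p = 0.643) were not, and none was at 0. The sum was carried by *Acta2* and *Postn*. In mutant replicates 1, 2 and 3 *Acta2* was at 174.6, 207.3 and 169.0 CPM and *Postn* at 234.4, 223.5 and 110.8 CPM. The lower sum in mutant replicate 3 thus came mainly from *Postn*. *Adamtsl2*, *Adamts2*, *Adam22* and *Timp1* were, like this sum, lowest in mutant replicate 3 among the mutant libraries, and *Adamtsl4* and *Adam19* were not. The 5 markers of resting fibroblasts summed to 1403 to 1594 CPM in WT and 1399 to 1597 CPM in mutant libraries, with 1 called, *Col1a1*. Those of smooth muscle and pericytes summed to 507 to 553 CPM in WT and 371 to 473 CPM in mutant libraries, with 2 of 5 lower, *Rgs5* and *Pdgfrb*. The smooth muscle markers *Myh11*, *Tagln* and *Cnn1* had log2 fold changes of -0.05, -0.002 and -0.04, none called. The 4 macrophage markers listed, at 245 to 254 CPM in WT and 234 to 276 CPM in mutant libraries, held no call. In the other marker lists *Actc1* of cardiomyocytes was called higher and *Tie1* of endothelium lower, those of atrium, skeletal muscle, neutrophils, mast cells, T cells, Schwann cells, mesothelium, adipocytes and erythroid cells held no call among the markers tested (*Bmp10* and *Sox10* were not), and no B cell marker was listed. The part of these cell types in the values of the members was not tested.

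**Figure D4:**
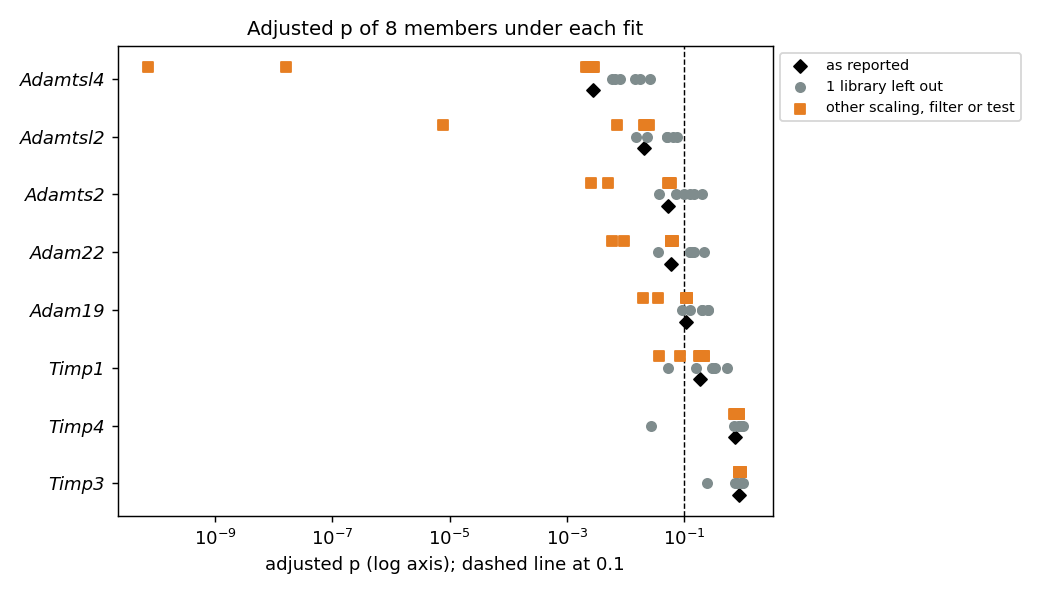
Adjusted p (log axis) of 8 members as reported and under the alternative fits without a block, with the threshold of 0.1 dashed. *Adamtsl4* and *Adamtsl2* stay left of the line throughout, *Adamts2* and *Adam22* cross it when libraries are left out, and *Timp4* crosses it without WT replicate 4 (0.0267).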

How the data were processed

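Poly-A libraries of mouse ventricle were sequenced as paired ends. The authors used OLego to align reads to the mm10 (GRCm38) genome and Quantas to count tags per gene (versions not given in the sources used here). For the kit, the methods name TruSeq and the labels NEBNext Ultra II Directional. The deposited values are, per gene and library, an estimated count of tags (expected counts, not whole for 8.45% to 13.8% of genes, rounded here) and an RPKM computed by the authors. The labels of the deposited values speak of CPM, but they held estimated counts, so the count test was used. What a tag is, 1 read or a pair, is not given in the sources used here.

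The 12955 genes that reached a CPM of 1 in 3 or more of the 6 libraries were tested with edgeR 4.0.16 in R 4.3.3: TMM scaling, genotype as the only term, the quasi-likelihood test, two-sided, with Benjamini-Hochberg adjustment over all genes tested. A gene was called at p under 0.01 with an adjusted p under 0.1. Every adjusted p in the text is of this kind unless another test is named. TMM factors were 0.98 to 1.02 and the biological coefficient of variation 12.3%. With 3 mice per group the p-values set each difference against the spread between these mice. Squared differences between the counts of 2 libraries of 1 genotype were, on average over genes, 14.8 to 30.0 times those of counting noise. RPKM were used for levels only. Positions came from RefSeq GRCm38.p6 by Entrez identifier, coding sequences and overlaps from GENCODE vM21.

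The members, lists and markers were chosen with earlier results of these data known. Named were every called member, every TIMP, the 3 most abundant members of each other subfamily by RPKM, the 6 uncalled members with the largest absolute log2 fold change whose groups did not overlap and, in each list, at most 3 called genes or the most abundant one, which for the list of inhibitors is not reported here. Alternatives were median-of-ratios scaling, no filter, a filter at a mean CPM of 5, the exact test, DESeq2 1.42.0, limma 3.58.1 with a trend on log2(CPM + 0.5) and log2(CPM + 2), an adjusted p under 0.05, p under 0.001, leaving out each library and a replicate block. Scripts were tested on simulated data. Tables and plots used Python 3.11.15, pandas 2.3.3 and matplotlib 3.10.9. Splicing and *Dst* isoforms were not analysed here.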

Additional observations from a re-analysis of the deposited data

How the results depend on the processing

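The number of members called higher was 4 under both scalings, all filters and both limma fits, 6 with the exact test and with DESeq2 (*Adam19* and *Timp1* added), and 2 (*Adamtsl2* and *Adamtsl4*) at an adjusted p under 0.05 or at p under 0.001. Leaving out 1 library gave 2 to 5: 2 where WT replicate 1 or either of mutant replicates 1 and 2 was missing. Members called lower were 0, against 1 with DESeq2 (*Adam33*) and 0 to 1 without a library (*Timp4* without WT replicate 4). Genes called in the 6 lists were 8, against 13 with the exact test, 14 with DESeq2 (without *Comp*, which limma did not call either), 4 at an adjusted p under 0.05, 3 at p under 0.001 and 3 to 8 without a library: 3 without WT replicate 1, WT replicate 4 or mutant replicate 1. Over all genes 601 were called, against 809 with the exact test, 1028 with DESeq2, and 163 without mutant replicate 1. The share called higher was 60.4%, and 76.1% without mutant replicate 1. The replicate numbers 1 and 3 are shared by WT and mutant labels, but the deviations of same-numbered libraries did not correlate (0.007 and -0.049), so the numbers were not taken to pair the mice. With the replicate number as a block, 966 genes were called, 4 members higher (*Adam19* in place of *Adam22*), 3 lower (*Adam15*, *Timp3* and *Timp4*) and 18 genes of the lists. That block leaves WT replicate 4 and mutant replicate 2 without a partner, so the genotype difference then rests on 2 libraries of each group. Of the 44 tested members 19 turned direction under at least 1 alternative, none of them a called member. Values on the log2 scale reached 0.30 for *Adamts14* without WT replicate 1, 0.25 for *Adam11* with the block, -0.24 for *Mmp12* without WT replicate 1 and 0.15 for *Adamts3* without WT replicate 4, and *Adam17*, *Mmp13* and *Mmp14* turned too. Of the members named by rule 5 turned: *Mmp15* (-0.034 without WT replicate 1, -0.038 without WT replicate 3, with a range of -0.038 to 0.24 over libraries left out), *Adamts1* (0.033 with the block, and -0.15 to 0.045 over libraries left out), *Adamts10* (-0.11 to 0.095), *Timp3* (-0.24 to 0.095) and *Timp4* (-0.50 to 0.000047). The cause was not tested. *Mmp13* and *Adamts8* had as few as 22 tags in a library, and the parts of depth and of the spread between mice in their wide intervals were not tested.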
